A study of Mus musculus with 270 samples.

Results

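Testis and kidney of the same 8 male mice were compared at 8 months of age, with 1 library per organ and mouse. These 16 libraries, of 270 in the series, were chosen by the organ and age in their labels, and no measured value entered the choice. The study followed organs of 45 male C57BL/6J mice, an inbred laboratory strain, from 3 to 26 months of age. The 8 testis and the 8 kidney libraries share strain, sex, age and supplier, and their labels name no treatment, mutation or transgene for either organ. Whole organs were ground to powder before RNA was drawn from them, so each library mixes the RNA of every cell type of the organ, and fewer cells of a type cannot be told apart from less RNA per cell.

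The testis makes sperm in seminiferous tubules, where spermatogonia divide, spermatocytes pass through meiosis and round spermatids are reshaped into sperm with an acrosome, a tail and a tightly packed nucleus. Sertoli cells nurse the germ cells inside the tubule, and Leydig cells between the tubules make testosterone. The kidney filters blood through podocyte-lined glomeruli and then recovers water, salts, glucose and amino acids along the nephron, which runs from the proximal tubule through the thick ascending limb and the distal convoluted tubule to the collecting duct. Much of a germ cell's transcript set is used by no other cell, whereas most of the kidney's characteristic transcripts encode transporters and enzymes of epithelial cells.

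Each library was scaled to 1000000 reads, and levels are given as CPM, reads of a gene per 1000000 reads of the library, without a correction for gene length. The marker of the testis was Prm1, protamine 1, which packs DNA in the sperm head (ENSMUSG00000022501.6, GRCm38 chr16:10796326-10805839, minus strand). It was at 1046, 1452 and 2936 CPM in the lowest, the median and the highest testis library, and at 0 to 0.14 in kidney, where 6 of 8 libraries held no read of it. The marker of the kidney was Kap, kidney androgen-regulated protein of the proximal tubule (ENSMUSG00000032758.4, chr6:133849851-133853762, minus strand). It was at 6419, 13940.5 and 17515 CPM in the lowest, the median and the highest kidney library and at 0.0639 to 19.3 in testis. Neither marker overlapped between the organs in any library, so every library carried the marker of its label. The testis library of mouse c1358 held the highest Kap of the testis libraries, 19.3 CPM.

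The promoters of these markers and of 3 more genes are shown, and the use of promoters was not measured in these data. The windows are those of RefSeq on GRCm38.p6, 250 bases before to 50 after the start of transcription, printed in the direction of transcription. Capitals mark matches, on either strand, to 5 short motifs, which are CATGGNAAC (the larger part of the X-box that RFX factors bind), GTTAATNAT (a motif known from kidney and liver promoters), TGACGTCA (the cAMP response element, bound by CREM in spermatids), AACNGTCA (bound by MYB factors) and TATAAA (the TATA box).
Prm1 (chr16:10796774-10797073, minus strand): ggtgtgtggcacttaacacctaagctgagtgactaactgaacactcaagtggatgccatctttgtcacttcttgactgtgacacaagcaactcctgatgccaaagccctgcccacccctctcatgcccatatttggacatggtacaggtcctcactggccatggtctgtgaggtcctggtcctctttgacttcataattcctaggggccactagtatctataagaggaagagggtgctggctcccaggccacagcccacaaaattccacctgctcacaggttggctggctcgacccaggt
Izumo1 (chr7:45621561-45621860, plus strand): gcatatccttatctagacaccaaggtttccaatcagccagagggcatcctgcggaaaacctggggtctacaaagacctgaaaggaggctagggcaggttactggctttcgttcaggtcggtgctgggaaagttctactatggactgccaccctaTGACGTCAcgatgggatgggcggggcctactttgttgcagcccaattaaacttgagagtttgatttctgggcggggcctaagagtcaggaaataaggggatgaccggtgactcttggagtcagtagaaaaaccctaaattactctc
Catsperg1 (chr7:29213984-29214283, minus strand): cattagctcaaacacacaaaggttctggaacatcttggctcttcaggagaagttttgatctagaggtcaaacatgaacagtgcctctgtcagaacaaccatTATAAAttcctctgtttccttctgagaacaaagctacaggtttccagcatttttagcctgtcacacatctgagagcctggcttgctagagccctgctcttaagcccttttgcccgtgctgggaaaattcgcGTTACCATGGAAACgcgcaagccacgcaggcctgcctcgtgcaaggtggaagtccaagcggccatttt
Kap (chr6:133853618-133853917, minus strand): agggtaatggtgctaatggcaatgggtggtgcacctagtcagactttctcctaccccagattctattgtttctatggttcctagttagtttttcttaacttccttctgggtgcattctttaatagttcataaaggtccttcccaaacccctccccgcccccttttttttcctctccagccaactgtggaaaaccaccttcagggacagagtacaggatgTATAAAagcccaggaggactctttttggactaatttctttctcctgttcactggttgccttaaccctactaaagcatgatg
G6pc (chr11:101367466-101367765, plus strand): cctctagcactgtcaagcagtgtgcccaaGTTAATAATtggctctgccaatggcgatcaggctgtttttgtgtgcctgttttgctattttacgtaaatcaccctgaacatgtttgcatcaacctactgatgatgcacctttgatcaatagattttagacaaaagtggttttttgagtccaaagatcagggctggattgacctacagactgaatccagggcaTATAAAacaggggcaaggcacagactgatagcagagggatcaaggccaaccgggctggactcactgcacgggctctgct

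In these windows Kap and G6pc, the glucose-6-phosphatase of gluconeogenesis, each held a TATAAA, which began 31 and 29 bases before the start of transcription, and that of Catsperg1 began 149 bases before. G6pc also held GTTAATNAT. Izumo1, the sperm protein that joins the egg's receptor at fusion, held the cAMP response element 96 bases before its start. Catsperg1, a subunit of the sperm calcium channel, held 2 overlapping X-box matches, on opposite strands, that began 18 and 13 bases before its start. RefSeq gives Catsperg1 another start, whose window (chr7:29210876-29211175, minus strand) matched none of the 5 motifs. The window of Prm1 matched none of the 5 motifs as spelled. Izumo1, Catsperg1 and G6pc were chosen for display after their motif matches and their values were known, and a match of letters is not evidence that a factor binds.

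Depth and the libraries that stood apart bear on several values below. Recovered reads per library ran from 5246400 to 28477006 in kidney and from 10110187 to 19848304 in testis. The kidney library of mouse c2295 lay over 4-fold from the kidney median, on the log2(CPM + 1) scale, at 1497 of 13587 genes, that of c3662 at 739 and that of c1457 at 234, against 5 to 48 in the other 5. Summed neuronal and glial transcripts, a list of 12 genes added after this was seen, reached 6265 CPM in kidney c2295, 2362 in c3662 and 880.2 in c1457, against 49.2 to 212 in the other kidney libraries. Hepatocyte transcripts summed to 1064 in kidney c1457 against 109.9 to 298 in the others, and skeletal muscle fibre transcripts to 61.3 and 57.9 in kidney c1383 and c3662 against 1.22 to 3.62 elsewhere in kidney. In testis, the library of c1364 lay over 2-fold from the testis median at 1850 of 13630 genes, against 4 to 167 in the other 7. In the plot of transcripts of other organs by mouse these kidney libraries are the points above the rest, as is the testis library of c1358 for lung genes. Whether tissue or RNA of another organ reached them was not tested, and counts are given below with and without 2 of these mice (c2295 and c3662) and with and without all 4 (c1383 and c1457 also).

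**Figure D1:**
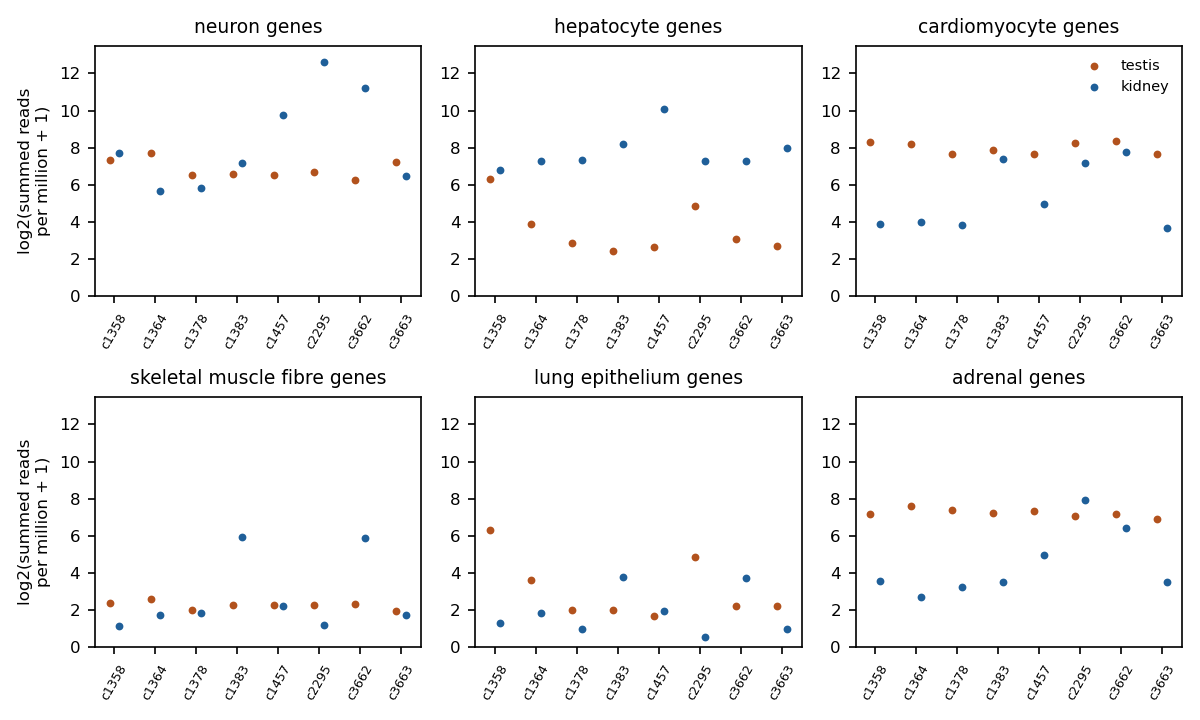
Summed CPM, as log2(sum + 1), of genes that mark 6 other cell types or organs, for the testis (brown) and kidney (blue) library of each of the 8 mice. Kidney of c2295 and c3662 is high for neuronal genes, kidney of c1457 for hepatocyte genes, kidney of c1383 and c3662 for skeletal muscle genes, and testis of c1358 for lung genes, while cardiomyocyte genes sum to 202 to 322 CPM in every testis library.

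Not every gene could be read. Of 572 genes on 35 lists, 27 were listed at 0 in all 16 libraries, among them Tnp1 (a transition protein of spermatids), Sycp3 (an axial element protein of meiotic chromosomes), Insl3 (the Leydig cell hormone) and Hpd (a tyrosine-degrading enzyme). In GENCODE M21, 24 of these 27 lie wholly inside another annotated gene, and across the genome 91.3% of 1202 protein-coding genes of that kind were at 0 in all 16 libraries, against 8.98% of 12143 that overlap no other gene. The 37 mitochondrially encoded genes were also listed at 0 in every library, so their share of reads could not be compared. A 0 for such a gene says nothing about its expression, and partly overlapped genes may be understated.

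Most genes differed between the organs. Of 14775 genes with at least 5 CPM in at least 5 of the 16 libraries, 5983 (40.5%) were higher in testis and 6733 (45.6%) were higher in kidney by limma with each mouse as a block, at an adjusted p of at most 0.05. At least 4-fold differences were found for 3610 genes (24.4%) toward testis and 3155 (21.4%) toward kidney. The 8 testis values all lay above the 8 kidney values for 4666 genes (31.6%) and all below them for 5267 (35.6%). These percentages are the background against which the counts of each gene list are read. The median difference over all genes tested was -0.18 on the log2 scale, testis minus kidney. It became 0.33 with median-of-ratios scaling, a shift of 0.51, and the share of the 4-fold calls that were toward testis then went from 53.4% to 64.6%, so differences of less than about that shift have no settled direction. Without the mice c2295 and c3662 the 4-fold counts were 3734 and 3111, and without all 4 mice 3847 and 3081.

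**Figure D2:**
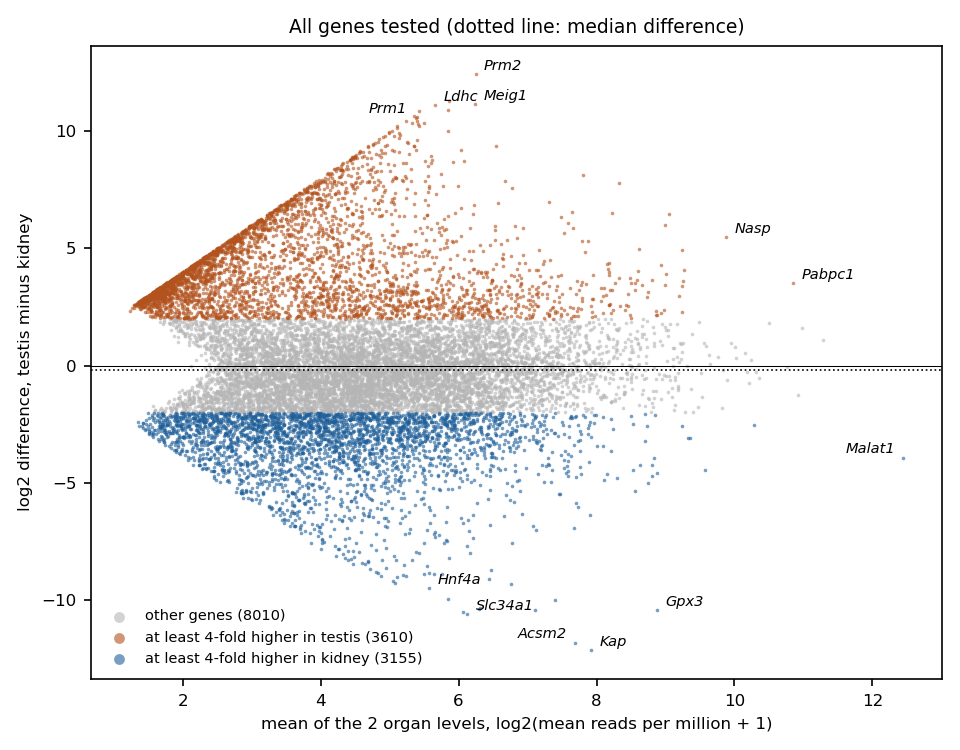
Log2 difference (testis minus kidney, y axis) against the mean of the organ levels (x axis, log2 of CPM + 1) for the 14775 genes tested. Genes called at least 4-fold higher in testis (3610, brown) and in kidney (3155, blue) are coloured. The diagonal edges are genes close to 0 in one organ, and Prm2 and Kap are the extremes.

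Of the 10 largest differences toward testis whose values did not overlap, all belonged to genes known from spermatids and sperm. Prm2 (12.42) came first, followed by Cylc2 (11.29), cylicin of the sperm head's cytoskeleton, Meig1 (11.14), Ldhc (11.11), Crisp2 (10.90), an acrosomal protein, Spz1 (10.83), a transcription factor of spermatids, Akap4 (10.62), Tnp2 (10.61), Prm1 (10.57) and Spata3 (10.44). Toward kidney 9 of the 10 were Kap (-12.14), Acsm2 (-11.81), Slc34a1 (-10.58), Cltrn (-10.51), Cyp2j5 (-10.43), Gpx3 (-10.42), Slc7a13 (-10.33), Slc27a2 (-10.00) and Cyp4b1 (-9.95), all known from the proximal tubule. No kidney library held a read of 377 of the tested genes, and no testis library held a read of 2. A difference of this kind depends on the pseudocount of 1, and it is given as a fitted value and not as a bound.

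The testis libraries held a wider set of transcripts, and the kidney libraries put more of their reads on few genes. Genes with at least 1 CPM numbered 17359 ± 279 in testis (SD, n = 8) and 15160.4 ± 562 in kidney, higher in testis in 8 of 8 mice (exact permutation test over sign flips of the paired differences, two-sided, p = 0.0078, the smallest p that 8 pairs allow, and adjusted p = 0.0098 over 5 measures). Libraries thinned to 5246400 reads gave a difference of 2063 genes against 2199 at full depth, and with at least 5 CPM as the limit the difference was 639. The 10 highest genes took 4.68% ± 0.684 of reads in testis and 8.21% ± 1.57 in kidney, higher in kidney in 8 of 8 mice (exact permutation test, adjusted p = 0.0098). The 100 highest genes took 18.1% ± 1.73 and 20.8% ± 2.28, higher in kidney in 7 of 8 mice (exact permutation test, adjusted p = 0.031), a call that was lost without c1358, c1378, c1383, c1457 or c3663 (differences of -2.90 to -2.29 percentage points, each with adjusted p = 0.062).

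The following are shares of reads. In testis the largest shares belonged to Nasp, a histone chaperone, with 0.629% of reads, Pabpc1, the poly(A)-binding protein, with 0.61%, Prm2, protamine 2, with 0.57%, Odf2, an outer dense fibre protein of the tail, with 0.499%, and Smcp, a protein of the sperm mitochondrial capsule, with 0.442%. Lyar, Ybx1, Meig1, Hsp90aa1 and Ybx3 followed with 0.333% to 0.389%. Ybx1 and Ybx3 encode RNA-binding Y-box proteins, Meig1 is needed to build the sperm tail, and all 10 were higher in testis. In kidney, Malat1, a nuclear long non-coding RNA, took 2.13% of reads (from 1.00% in mouse c1358 to 2.99% in c3663). Gpx3, the secreted glutathione peroxidase, took 1.47%, Kap 1.25% and Acsm2, a medium-chain acyl-CoA synthetase, 1.00%. Slc27a2, Cyp2j5, Tmbim6, Hsp90ab1, Calr and Slc7a13 followed with 0.273% to 0.466%, and all 10 were higher in kidney.

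**Figure D3:**
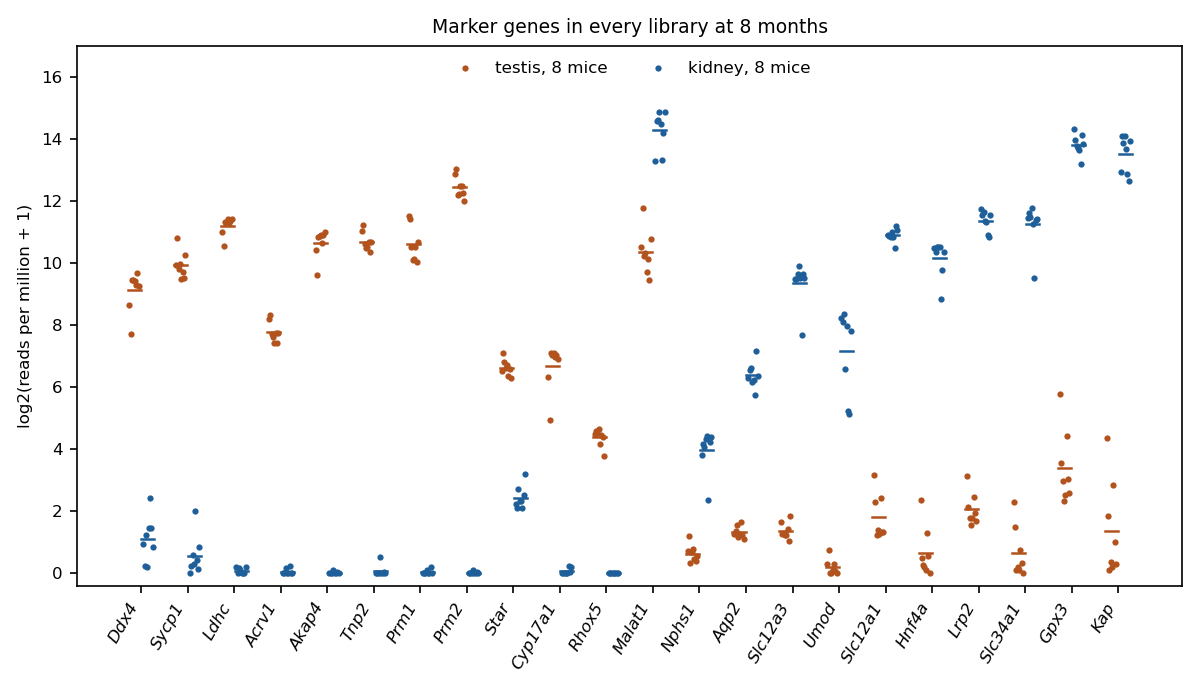
Levels of 22 genes in every library, as log2(CPM + 1), with testis in brown and kidney in blue, 8 libraries each, and the mean as a bar. Germ cell genes from Ddx4 to Prm2 are at or near 0 in kidney, kidney genes from Nphs1 to Kap are low in testis, and the kidney spread is widest for Umod.

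Genes of the germ line were nearly uniformly higher in testis. On the 9 germ cell lists, 159 of 183 genes with a row passed the filter on low values, 151 of them were called higher in testis and 143 at least 4-fold, against a background of 40.5% and 24.4%, and 4 were called higher in kidney. Because a germ cell gene passes the filter mostly through the testis libraries, these counts are given beside the number that did not pass. Together these genes took 5.65% to 6.14% of testis reads and 0.17% to 0.257% of kidney reads.

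Of the germ cell lists, that of the earliest stage had the smallest median difference. Of 14 spermatogonia genes 9 were tested, 5 were higher in testis and 3 in kidney, and the median difference was 1.5. Among the members not tested, Sohlh1, Lin28a, Nanos3 and Sall4 had means of 3.29, 5.35, 1.91 and 1.66 CPM in testis. In kidney they had 0, 0.148, 0.338 and 0.108, and Nanos2 had 0.103 in testis and 0.121 in kidney. The median leaves these genes out, and the pseudocount of 1 shrinks differences at such low levels. Dazl, an RNA-binding protein of germ cells, was at 54.8 to 92.1 CPM in testis and 0 to 4.17 in kidney, a log2 difference of 5.51 ± 0.27 (SE; adjusted p = 1.8e-09). Dmrt1, a transcription factor of spermatogonia and Sertoli cells, differed by 5.51, and Stra8, which retinoic acid induces at the entry into meiosis, by 4.29. The 3 genes that were higher in kidney were Id4 (-1.44), Zbtb16 (-0.75) and Gfra1 (-0.60), which mark stem-like spermatogonia and are also used outside the germ line. These calls depend on the scaling of the libraries. With TMM scaling 5 genes of the list were higher in testis and 1 in kidney, and with median-of-ratios scaling 6 and 1. Kit, the receptor of differentiating spermatogonia, was at a mean of 18.4 CPM in testis and 20.6 in kidney and was not called (adjusted p = 0.7).

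Meiotic genes followed. Of 28 genes of the chromosome axis and of recombination 23 were tested, 20 were higher in testis, none in kidney, and the median difference was 3.73. Sycp1, which zips homologous chromosomes together, was at 716, 934 and 1783 CPM in the lowest, the median and the highest testis library and at 0 to 3.05 in kidney, a log2 difference of 9.36 ± 0.27 (SE; adjusted p = 2.0e-11). The highest testis value, 1783, came from mouse c1364. Smc1b, a cohesin of meiosis, differed by 9.17, and Syce1, a central element protein, by 8.81. The other 3 were not called. Prdm9, which places recombination hotspots, had means of 8.9 and 11.5 CPM in testis and kidney, Mlh3 had 50.3 and 51.3, and Ythdc2 had 27.9 and 26.1.

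The piRNA pathway, which silences transposons in germ cells, was higher in testis for 18 of 18 genes tested, each at least 4-fold, with a median of 4.92. Its Argonaute protein Piwil1 was at 664, 867 and 3177 CPM in the lowest, the median and the highest testis library and at most 0.191 in kidney (9.84 ± 0.22 SE, adjusted p = 3.6e-12). The highest value came from mouse c1364, and the others were at most 1282. Mael differed by 9.36 and Tdrd6, a tudor scaffold of the chromatoid body, by 8.59, while the smallest difference of the list was that of Tdrd7, 2.27. Ddx4, the germ cell helicase also called Vasa, was at 207, 654 and 817 in the lowest, the median and the highest testis library and at 0.15 to 4.33 in kidney.

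Transcription regulators of germ cells were higher in testis for 14 of 14 tested genes, each at least 4-fold. Sox30 (7.73), Tcfl5 (7.49) and Gtf2a1l (7.44), a germ cell form of a general transcription factor, led the list. Rfx2, which drives genes of spermatid cilia, was at a mean of 191 CPM in testis and 4.84 in kidney, and Crem, the activator that binds the cAMP response element in spermatids, at 248 and 42.0. Mybl1, the A-MYB factor of pachytene spermatocytes, was at 81.3 and 3.13.

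The products of late spermatids showed the widest gaps. All 7 tested of 12 sperm chromatin genes were at least 4-fold higher in testis, with a median of 10.15. Prm2 was at 4103, 5266 and 8359 CPM in the lowest, the median and the highest testis library, and the 8 kidney libraries held 2 reads of it in all. Pooled over libraries the ratio was 222727 with a 95% counting interval of 61657 to 1839130, which covers counting error alone. Prm2 was the largest difference toward testis, 12.42 ± 0.14 (SE; adjusted p = 1.0e-13). Tnp2, a transition protein that precedes the protamines, differed by 10.61 and was at 1301 to 2359 in testis. Mice c1358 and c1364 had the highest testis values of Prm1, Prm2 and Tnp2.

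Acrosome and tail genes were also set apart. Of 27 genes of the acrosome and of gamete fusion 24 were tested, all 24 were higher in testis and 22 at least 4-fold. Adam3 (9.39) and Adam2 (8.28), surface proteins that sperm need to reach and bind the egg, and Clgn (9.38), the chaperone that folds them, led. Acrv1, an acrosomal protein, was at 168, 212 and 317 in the lowest, the median and the highest testis library and had 2 reads in the 8 kidney libraries. Izumo1, whose promoter is shown above, was at a mean of 100.2 in testis and 0.0586 in kidney. The 2 members under 4-fold were Spaca6 (0.53) and Dcst1 (1.28).

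All 34 tested of 35 sperm tail genes were at least 4-fold higher in testis, with a median of 6.89, and the list's summed level was 20784 to 23162 CPM in testis and 141 to 207 in kidney. Akap4, the main protein of the fibrous sheath, was at 785, 1846 and 2023 in the lowest, the median and the highest testis library (10.62 ± 0.16 SE, adjusted p = 3.1e-13), and its lowest value was that of mouse c1364. Odf1, of the outer dense fibres, differed by 10.21 and Akap3 by 9.13. The smallest differences were those of Cfap69 (3.41) and Ccdc39 (3.97), genes of motile cilia in general. Of 20 sperm ion channel and transporter genes 18 were tested, all 18 were higher in testis, and 17 at least 4-fold. The group included Atp1a4 (8.89), the sodium pump of sperm, Slc9c1 (8.06), a sperm sodium-proton exchanger, Slco6c1 (7.37) and the CatSper calcium channel, whose Catsperg1 was at a mean of 288 in testis and 1.84 in kidney. Atp2b4, the plasma membrane calcium pump, was under 4-fold (0.95).

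Ubiquitin and proteasome genes of spermiogenesis had a median difference of 4.15, with 11 of 12 tested genes higher in testis and 8 at least 4-fold. Klhl10 (7.80) and Ubqlnl (7.64) were among the largest. Spop, a substrate adaptor of the cullin ligase Cul3, was higher in kidney (-1.99), while Cul3 itself was higher in testis (1.63).

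The supporting cells of the testis were visible at lower levels. Of 19 Sertoli cell genes 17 were tested and 16 were higher in testis. The list's summed level was 1214 to 2303 CPM in testis and 357 to 1208 in kidney. Dmrt1 and Rhox8 (5.38), a homeobox gene, and Amhr2 (5.25), the receptor of anti-Müllerian hormone, led. Rhox5, another homeobox gene of Sertoli cells, was at 12.5 to 24.2 CPM in testis, and no kidney library held a read of it, which makes it at least 536-fold higher in testis against a floor of 3 reads over the kidney group. Ctsl, a protease that Sertoli cells secrete, was at means of 298 and 486 in testis and kidney and was not called (adjusted p = 0.22). Wt1, shared by Sertoli cells and podocytes, was higher in testis (124 against 44.6).

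Of 15 Leydig cell genes 13 were tested, 10 were higher in testis and 3 in kidney. The list's summed level was 493 to 623 CPM in testis and 528 to 1141 in kidney, so the sum was not higher in testis. Cyp17a1, the lyase that turns progestins into androgens, was at 29.7, 127 and 137 CPM in the lowest, the median and the highest testis library and had 3 reads in the 8 kidney libraries. The testis value of mouse c1364, 29.7, was the lowest. Hsd3b6 (5.03) and Cyp11a1 (4.94), which make the steroid precursors, followed, and Star, which carries cholesterol into mitochondria, was at 76.9 to 135 in testis and 3.33 to 8.1 in kidney. Cyb5a (-5.34), the cytochrome b5 that assists Cyp17a1, was at least 4-fold higher in kidney, and Fdx1 was also higher there (-0.88).

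Many proteins have a somatic form and a form that germ cells use in its place or beside it. Of 26 such pairs, 18 had both genes tested. All 18 germ cell forms were at least 4-fold higher in testis, with differences from 4.12 to 11.11, and 8 of them had no read in any kidney library. Their somatic counterparts mostly went the other way, with 15 of 18 higher in kidney, 12 of them at least 4-fold, 2 higher in testis and 1 not called. Reads of near-identical copies may be divided between the members of a pair by the counting.

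Several pairs belong to glycolysis and mitochondria. Pgk2, the phosphoglycerate kinase of spermatids, was at 266, 529 and 598 CPM in the lowest, the median and the highest testis library with no kidney read, at least 13849.8-fold higher in testis. Pgk1, the form of other cells, was at 5.93 to 14.4 in testis and 123 to 345 in kidney (-3.94 ± 0.18 SE, adjusted p = 8.4e-10). In CPM per kilobase of exon, Pgk2 stood at a mean of 312 in testis and Pgk1 at 4.92. The length used was that of all annotated exons of a gene together, which may understate genes with many isoforms. Pdha2 (at least 4939-fold higher in testis) and Pdha1 (-4.95), the catalytic subunits of pyruvate dehydrogenase, also differed in opposite directions. Ldhc, the lactate dehydrogenase of sperm, was at 1490.3, 2522 and 2750.1 in the lowest, the median and the highest testis library (11.11 ± 0.13 SE, adjusted p = 1.0e-13), but its somatic counterpart Ldha was at 195 to 536 in testis and 164 to 405 in kidney, with overlapping values and a difference of 0.58 ± 0.25 (SE; adjusted p = 0.048) that was no longer called without any one of 6 mice (0.42 to 0.62; all but c1364 and c3663). Per kilobase, Ldhc exceeded Ldha in testis, 1513 against 136. Over the 18 pairs the germ cell form was above the somatic form on this scale in all 8 testis libraries for 14 pairs and below it in all 8 for 4, which were Pabpc2 against Pabpc1 (means of 318 and 932), Calr3 against Calr (means of 94.6 and 429), Eno4 against Eno1 (means of 22.2 and 31.8) and Slc25a31 against Slc25a4 (14.9 and 33.7).

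Subunits of the respiratory chain were among the pairs whose members differed in opposite directions. Cox8c was at least 17420.1-fold higher in testis against -3.85 for Cox8a, Cox7b2 differed by 7.23 against -4.86 for Cox7b, and Cox6b2 by 4.57 against -3.58 for Cox6b1. The testicular cytochrome c, Cyct, differed by 6.85 and the somatic Cycs by -2.0, and the mitochondrial ADP/ATP carriers Slc25a31 and Slc25a4 by 4.61 and -2.90.

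The pairs reached beyond metabolism. The ribosomal proteins Rpl10l and Rpl39l differed by 7.27 and 7.38, with Rpl10 at -3.06 and Rpl39 at -2.46. Psma8, the proteasome subunit of meiotic cells, differed by 7.14 and Psma7 by -1.97. Pabpc1 was an exception, since it was higher in testis together with its germ cell form Pabpc2 (3.52 and at least 22443-fold), and so was Eno1, the enolase of most cells, which was not called (-0.20; adjusted p = 0.38; positive with TMM and median-of-ratios scaling, edgeR and DESeq2, from 0.10 to 0.33). The remaining pairs were Aldoart1 and Aldoa (5.09 and -1.34), Eno4 (4.37, the germ cell form beside Eno1), Rbmxl2 and Rbmx (4.12 and -2.95), Cetn1 and Cetn2 (9.14 and -2.39), Ubl4b and Ubl4a (6.79 and -2.30) and Calr3 and Calr (4.82 and -1.26). Of the 18 somatic forms, 8 are encoded on chromosome X (Pgk1, Pdha1, Cox7b, Rpl10, Rpl39, Rbmx, Cetn2 and Ubl4a). All 8 were at least 4-fold higher in kidney, with a median of -3.0, against 4 of 10 on autosomes, with a median of -1.66. These counts leave out tested somatic forms whose germ cell form was listed at 0. On chromosome X these were Gk (-7.46), Utp14a (-1.37) and Cstf2 (0.60, not called), and on autosomes Gapdh (-2.23) and Tuba1b (0.66). With them, not every X-linked somatic form was at least 4-fold higher in kidney. None of the 18 germ cell forms is on chromosome X. The difference between these small groups was not tested.

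**Figure D4:**
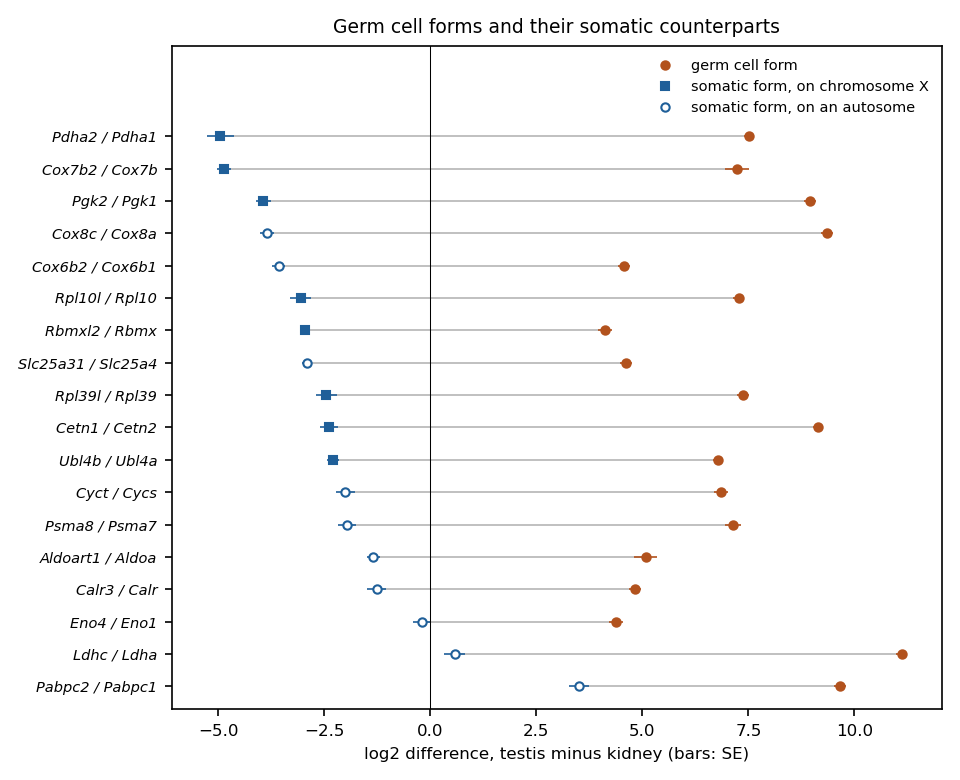
Log2 difference, testis minus kidney, with its SE, for 18 pairs of a germ cell form (brown) and its somatic counterpart (blue; filled squares on chromosome X, open circles on an autosome). Every germ cell form lies above 4, and 15 of 18 somatic forms lie below 0 and were called.

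Chromosome X is silenced in male germ cells during meiosis, and the share of reads it received was lower in testis. It took 1.45% ± 0.0899 of testis reads (SD, n = 8) and 2.99% ± 0.271 of kidney reads, lower in testis in 8 of 8 mice (exact permutation test, two-sided, adjusted p = 0.0098). Of 506 tested genes on chromosome X, 280 were higher in kidney and 176 in testis, and their median difference was -1.03 against -0.16 for the 14246 autosomal genes. The chromosome nevertheless held genes of both kinds, with 28.3% of its tested genes at least 4-fold higher in testis and 34.8% at least 4-fold higher in kidney, against 24.3% and 20.9% on autosomes. Akap4 and the Rhox genes are examples of the former, and Cltrn (-10.51), collectrin, which stabilizes amino acid transporters in the proximal tubule, is the largest of the latter.

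Chromosome Y took 0.0381% ± 0.0121 of testis reads and 0.0677% ± 0.0153 of kidney reads, lower in testis in 8 of 8 mice (exact permutation test, adjusted p = 0.0098). Its 12 tested genes differed in both directions. Ddx3y (-2.90), Uty (-2.56) and Kdm5d (-2.35), which have partners on chromosome X, were higher in kidney, and Eif2s3y (-0.82) was too, with less than a 4-fold difference. Zfy2 (3.90) and Zfy1 (2.93), zinc finger genes of meiosis, Usp9y (2.99) and Uba1y (2.76), which also have X-linked partners, were at least 4-fold higher in testis. The other 4 were predicted genes, of which 3 were higher in testis and 1 in kidney. The predicted gene higher in kidney had the largest mean of the 12 in both organs, so it weighs most on the chromosome's share of reads. It was at a mean of 70.1 CPM in testis (7.53 to 273) and 291 in kidney (48.8 to 524), with overlapping values.

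Non-coding genes that passed the filter on low values were more often higher in testis than in kidney. Of 733 tested genes annotated as lincRNA, 549 (74.9%) were at least 4-fold higher in testis and 63 (8.59%) in kidney, whereas of 13166 protein-coding genes 2636 (20.0%) and 2971 (22.6%) were. A lincRNA could pass the filter through the testis libraries alone, and 538 of the 733 had no kidney library at 5 CPM, against 69 with no testis library at that level. Another 2855 lincRNA genes had reads in these 16 libraries but did not pass, and 1202 had none, so these shares describe the genes that passed and not all lincRNA genes. Antisense genes gave 144 and 38 of 274, and reads of an antisense gene and its partner cannot be told apart where strand was not used in counting. Malat1 was higher in kidney, at 10046, 23476 and 29880.4 CPM in the lowest, the median and the highest kidney library and 690.3 to 3462 in testis, with no overlap (-3.92 ± 0.32 SE, adjusted p = 2.1e-07).

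Kidney genes were lower in testis along the whole nephron. On the 9 kidney lists, 143 of 156 genes with a row passed the filter, 131 were called higher in kidney and 125 at least 4-fold, against a background of 45.6% and 21.4%, and 7 were higher in testis. A kidney gene can pass the filter through the kidney libraries alone, so these counts describe the genes that passed. Together the 156 genes took 4.38% to 9.07% of kidney reads and 0.215% to 0.253% of testis reads. The plot of list members shows the germ cell and kidney lists on opposite sides of 0.

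**Figure D5:**
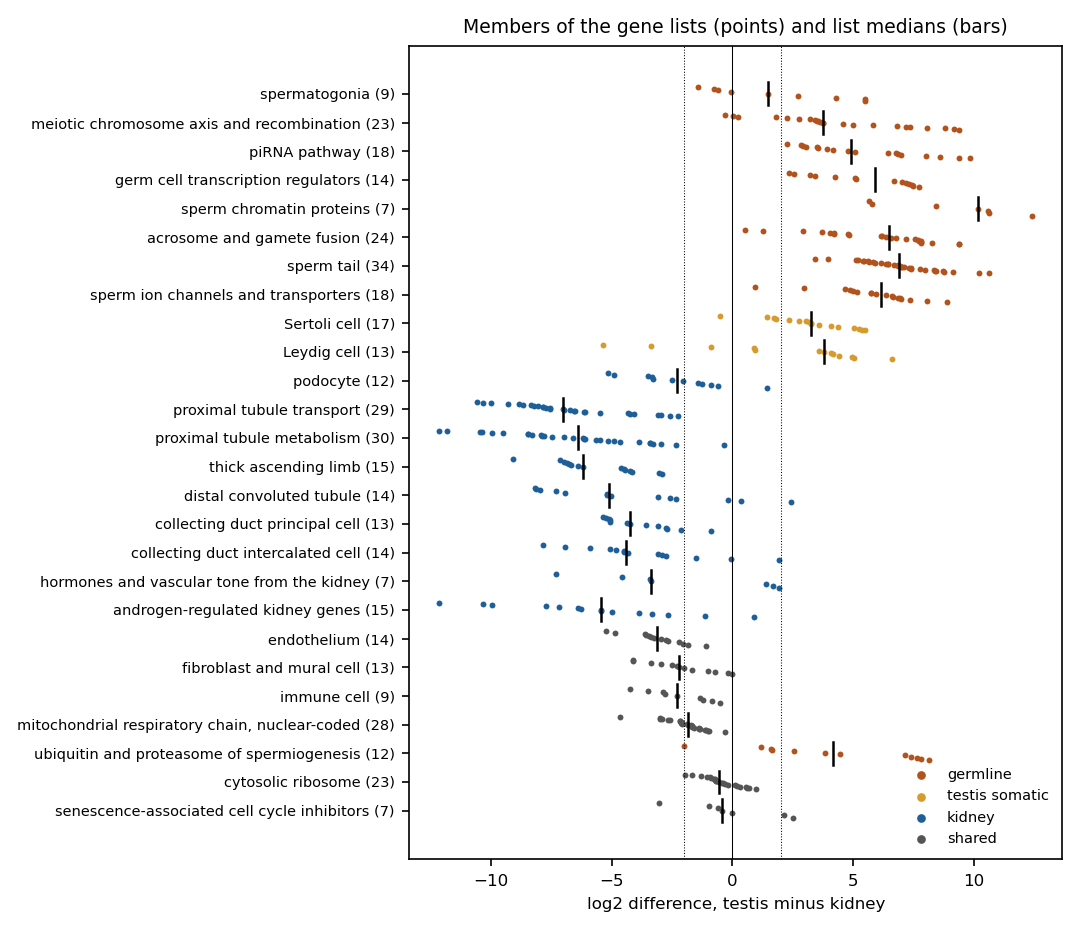
Log2 differences, testis minus kidney, of the tested members (points, number in parentheses) of 26 gene lists, with the list median as a bar and dotted lines at -2 and 2. Sperm chromatin genes have the highest median (10.15) and proximal tubule transport genes the lowest (-7.03).

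The proximal tubule, which recovers most of the filtrate, differed most. All 29 tested of 30 transport genes were at least 4-fold higher in kidney, with a median of -7.03. Slc34a1, the phosphate transporter that parathyroid hormone regulates, was at 731, 2753 and 3513 CPM in the lowest, the median and the highest kidney library and at 0 to 3.93 in testis (-10.58 ± 0.32 SE, adjusted p = 3.2e-11). Its lowest kidney value was that of mouse c2295, and without that library the range was 2427 to 3513. Slc7a13, a cystine and aspartate transporter of the late segment, differed by -10.33, Slc27a2, which takes up fatty acids, by -10.00, and the endocytic receptor Lrp2, megalin, by -9.30. Lrp2 was at 1834 to 3399.7 in kidney and 1.93 to 7.72 in testis. The organic anion transporters Slc22a6 (-7.85) and Slc22a8 (-8.33) and the glucose transporter Slc5a2 (-6.51) were within the list's range, and its smallest difference was that of Slc2a2 (-2.24), the basolateral glucose carrier.

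Of 33 proximal tubule metabolism genes 30 were tested, and 29 were at least 4-fold higher in kidney. Kap (-12.14 ± 0.56 SE, adjusted p = 1.1e-09) was the largest difference toward kidney of all genes tested, and Acsm2 (-11.81) came next, at 4233, 11970.1 and 13704 CPM in the lowest, the median and the highest kidney library. Cyp2j5, a fatty acid epoxygenase, followed (-10.43). Hnf4a, a nuclear receptor that sets the proximal tubule program, was at 452 to 1456 in kidney and 0 to 4.15 in testis. The gluconeogenic genes G6pc (-8.47) and Pck1 (-8.30) were also higher in kidney. Fbp1, a gluconeogenic enzyme, was not called, with means of 400.4 in kidney and 302 in testis (adjusted p = 0.36). Gpx3 was on none of the lists and differed by -10.42, and its highest testis value, 53.3, was that of mouse c1358.

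Testosterone from the testis sets part of the male kidney's program. Of 15 androgen-regulated kidney genes, all tested, 14 were higher in kidney and 13 at least 4-fold. Kap, Slc7a13 and Cyp4b1 (-9.95), a fatty acid hydroxylase, were the largest. The summed level of the list varied among mice, from 10499 to 27521 CPM in kidney. Prlr, the prolactin receptor, was the exception (0.89).

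In the thick ascending limb, which dilutes the urine, all 15 genes of the list were tested and at least 4-fold higher in kidney. Slc12a1, the salt cotransporter that loop diuretics block, was at 1430.1, 1884 and 2311 CPM in the lowest, the median and the highest kidney library (-9.08 ± 0.25 SE, adjusted p = 1.6e-11). Umod, uromodulin, spread more widely, from 33.7 to 327, with mice c2295, c3662 and c1383 lowest, and was at most 0.692 in testis (-6.98 ± 0.39 SE, adjusted p = 7.1e-09). Ppp1r1a, a phosphatase inhibitor, differed by -7.13.

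In the distal convoluted tubule 11 of 14 tested genes were higher in kidney. Slc12a3, the cotransporter that thiazides block, was at 202, 728 and 949 in the lowest, the median and the highest kidney library (-7.98 ± 0.24 SE, adjusted p = 2.9e-11), and its lowest value was again that of c2295. Calb1 (-8.15), a calcium buffer, and Tmem52b (-8.14) were similar in size. Stk39, the kinase that activates these cotransporters, was at least 4-fold higher in testis, at 385 to 517 CPM against 64.9 to 124 in kidney (2.44 ± 0.12 SE, adjusted p = 2.7e-09). Trpm6, a magnesium channel, and Klhl3, a ubiquitin ligase adaptor, were not called, with means of 51.9 and 38.7 in testis and 39.9 and 43.8 in kidney.

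All 13 tested principal cell genes of the collecting duct were higher in kidney, 12 at least 4-fold. The water channels Aqp4 (-5.22), Aqp3 (-5.09) and Aqp2 (-5.06) and the sodium channel subunit Scnn1a (-5.35) led, and Aqp2 was at 53.0 to 143 in kidney and 1.14 to 2.13 in testis. Among 14 tested genes of acid-secreting intercalated cells, 12 were higher in kidney, led by the proton pump subunits Atp6v1g3 (-7.83) and Atp6v0a4 (-6.91) and by the carbonic anhydrase Car12 (-5.88), and Slc26a7, an anion exchanger, was higher in testis (1.91).

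In the glomerulus, 10 of 12 tested podocyte genes were higher in kidney. Podxl (-5.16), Npnt (-4.90) and Nes (-3.48) led, and Nphs1, nephrin of the slit diaphragm, was at 4.17, 17.4 and 20.6 CPM in the lowest, the median and the highest kidney library (-3.34 ± 0.21 SE, adjusted p = 2.4e-08). Wt1 was the member higher in testis. Of 7 tested genes of kidney hormones and vascular tone 4 were higher in kidney, among them Kl (-7.30), the klotho co-receptor for FGF23, Renbp (-4.58) and renin, Ren1 (-3.39). The other 3, Ace (1.69), Agt (1.93) and Nos1 (1.39), were higher in testis. Ace has a germ cell form made from a promoter inside the gene, and the gene-level reads do not separate it from the form of other cells.

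Genes of cell types that both organs contain were mostly higher in kidney. Endothelial genes were higher in kidney for 14 of 14 tested genes (median -3.10), led by Emcn (-5.23) and Plvap (-4.85), markers of fenestrated and venous vessels, and Pecam1 (-3.61). Fibroblast and mural cell genes were higher in kidney for 10 of 13 (median -2.20), led by Fbln5, Mgp and Pdgfrb (-4.13, -4.13 and -3.37). The 3 not called were Acta2, Myh11 and Dcn, with means of 21.7, 32.9 and 22.6 in testis and 24.8, 34.8 and 46.0 in kidney. Immune cell genes were higher in kidney for 9 of 9 tested of 16, led by the antigen presentation genes H2-Aa (-4.25) and Cd74 (-3.48) and by Csf1r (-2.85), the macrophage growth factor receptor. With TMM and with median-of-ratios scaling, 7 of the 9 were called higher in kidney.

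Nuclear genes of the respiratory chain were higher in kidney for 27 of 28, 13 of them at least 4-fold, with a median of -1.85. The 27 became 26 with TMM and 25 with median-of-ratios scaling. Ndufa4 (-4.67), Cyc1 (-3.01) and the X-linked Ndufa1 (-3.0) led, and Uqcrc1 was not called (-0.32; adjusted p = 0.28). Ribosomal protein genes were divided, with 12 of 23 higher in kidney, 3 in testis and 8 not called, none at least 4-fold. Rps3 (-1.97), Rpl10a (-1.68) and Rps2 (-1.31) showed the largest differences, all toward kidney, and the list's median was -0.53. With median-of-ratios scaling 5 were higher in kidney and 7 in testis, so this list has no direction that holds across scalings. Of 7 tested cell cycle inhibitors that are read as marks of senescence, 3 were higher in kidney and 2 in testis. Cdkn1b, which encodes p27, was the largest toward kidney (-3.05), and Cdkn2c (2.52) and Cdkn2d (2.13), which encode p18 and p19, were higher in testis. Cdkn1a, which encodes p21, was not called, with means of 11.1 in testis and 12.4 in kidney.

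Transcripts that mark other organs also separated the groups. Heart muscle genes were present in every testis library. Of 12 on the list 6 were tested, 5 were higher in testis and 1 was higher in kidney (-1.37). Myh6, the alpha myosin heavy chain, was at 64.7, 83.3 and 128 CPM in the lowest, the median and the highest testis library and at 0.166, 1.8 and 70.2 in kidney, with overlapping values (4.12 ± 0.65 SE, adjusted p = 8.7e-05). Tnni3 (4.43) and Tnnt2 (3.43), the cardiac troponins, were likewise higher in testis, while Actc1 and Pln, 2 more genes of the list, were listed at 0 in all 16 libraries. The highest kidney values of Myh6 were 70.2 in c3662 and 69.5 in c1383, the same kidney libraries that held skeletal muscle transcripts, and the other 6 were at most 2.67. Whether cardiac tissue reached the testis libraries or germ cells transcribe these genes was not tested.

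Of 10 fat genes 6 were tested, 4 were higher in kidney and 2 in testis. Car3 (-5.05), Fabp4 (-4.86) and Cfd (-4.60) were at least 4-fold higher in kidney. Adipoq, the hormone of fat cells, was at means of 7.75 in kidney and 13.1 in testis and was 1 of the 2 higher in testis (0.83). Of 15 hepatocyte genes 6 were tested and all were higher in kidney, led by Ttr (-5.92), Fga (-3.75) and Fgg (-3.0), and the list's sum was highest in kidney c1457. Erythroid genes were higher in kidney for 4 of 4 tested, led by Slc4a1 (-4.48), which intercalated cells also express, with Hbb-bs (-2.38) and Hba-a2 (-1.68). Of 12 adrenal genes 4 were tested, and Star, Akr1b7 (3.59) and Chga (1.5) were higher in testis, of which Star is also a Leydig cell gene. Neuronal genes, read above per library, were higher in kidney for 5 of 8 tested, led by Snap25 (-4.96), and were at 74.6 to 210 CPM in sum in testis. Their list was added after the kidney libraries were seen, so these calls are no separate evidence. The sum was lower in kidney than in testis in c1364, c1378 and c3663, and higher in c1358, c1383, c1457, c2295 and c3662. No skeletal muscle gene passed the filter, and of the lung genes 1 did (Scgb1a1, 1.58), which was not called. The call of Chga was lost without mouse c1364, and its highest kidney value was 37.7. None of 18 epididymis genes passed the filter, and their sum was 6.53 to 10.5 CPM in testis.

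The promoters of the called genes were searched for the 5 motifs shown above. Of 3610 genes at least 4-fold higher in testis 2566 had a RefSeq window, as did 2356 of the 3155 toward kidney. The whole set held 32851 windows of 27025 genes. The X-box part CATGGNAAC was found in 4.17% of testis genes, 0.976% of kidney genes and 1.85% of the other genes tested, against 2.22% of all genes with a window. The motif GTTAATNAT went the other way, with 0.546% of testis genes, 1.32% of kidney genes, 0.399% of the other genes tested and 0.94% of all genes with a window. The MYB motif was in 4.17% of testis genes, 2.04% of kidney genes, 2.18% of the other genes tested and 2.94% of all genes with a window. The cAMP response element was in 3.08% of testis genes and 2.33% of kidney genes, both under the 3.89% of the other genes tested, and in 2.03% of all genes with a window. TATAAA did not separate the groups (12.0% and 11.9%, with 7.88% of the other genes tested and 15.7% of all genes with a window). These are descriptions without a test, and a gene with more than 1 window was counted once.

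The difference between the organs kept its direction at other ages, in mice that the comparison at 8 months did not use. Of the 6765 genes at least 4-fold apart at 8 months, 6755 (99.9%) had the same direction at all 5 other ages, and 5657 (83.6%) were at least 4-fold apart at each of them. Across the 14775 genes the differences at 8 months correlated with those at 3, 5, 14, 20 and 26 months at Pearson's r = 0.995, 0.996, 0.993, 0.981 and 0.991, which describes genes and not independent replicates. Prm1 differed by 10.32 to 10.78 at the other ages and Kap by -12.29 to -11.02.

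A contrast of 8 months with the mean of the other 5 ages called 5 genes (0.0338%) as higher and 0 (0%) as lower at 8 months, by limma on the difference within each of 45 mice, and 1220 genes had an unadjusted p under 0.05. The 5 called genes included Adcy7, Sept10, Mrc1 and Myof, whose contrasts were 0.93, 0.74, 0.82 and 1.00 with adjusted p from 0.034 to 0.044. At 20 months each of these 4 had its lowest difference of the 6 ages (Mrc1, a macrophage receptor, was at 1.78 at 8 months and -1.06 at 20 months). None of the 5 was called with a pseudocount of 0.1, and between 0 and 21 genes were called when 1 of the 8 mice was left out, the highest number without c1358.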

How the data were processed

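Poly(A) RNA of pulverized whole organs was sequenced as single reads, and the authors, per the labels and the study's methods, trimmed the reads (Trim Galore in the submitters' processing notes), aligned them with HISAT2 2.1.0 to GRCm38 and counted them per Ensembl gene. The deposited values are signal: gene counts divided by DESeq2 size factors, set separately for each organ. Whole reads were recovered from them (100% of values lay within 1e-06 of a whole number), and each library was scaled to 1000000 reads (CPM), since the tables were normalized separately. Depth was 5246400 to 28477006 reads. No molecular identifiers were used, so counting intervals cover counting error only.

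Samples were grouped by the organ and age in their labels, and 148 further columns of single samples were not used. Genes with at least 5 CPM in at least 5 of 16 libraries (14775) were tested with limma 3.58.1 (R 4.3.3, with an intensity trend and the mouse as a block) on log2(CPM + 1), with Benjamini-Hochberg adjustment, and called at an adjusted p of at most 0.05. Same-numbered libraries come from the same animal, and their deviations from the organ means correlated at -0.15 to 0.15. Tested on simulated data with 8 pairs and 14775 genes, this test called 98 of 100 genes changed by 1 on the log2 scale, 100 of 100 changed by 3 and 12 of 14575 unchanged genes. The simulation gave both organs the same dispersion and the same mouse effects and changed few genes. In the data most genes differed and some kidney libraries stood apart, so these rates may not hold for them. Single measures had exact sign-flip permutation tests. Mice are separate animals, 1 library each.

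Members, lists and tests were chosen with earlier results of these data known, and support nothing by themselves. Named were the markers, the 10 largest non-overlapping differences each way, the 3 largest called members of each list and those called 4-fold the other way, the testable pairs and the 10 largest read shares. Other list members, the genes on chromosome Y and 4 of the 5 age-dependent genes were named after their values were seen. Predicted genes and pseudogenes were not named. Some genes that these rules name are not reported here, though list counts include them, and 1 further pair was left out of the pair counts. Alternatives were other pseudocounts, no filter, other scalings, no block, mice left out, thinned reads, edgeR 4.0.16 and DESeq2 1.42.0 on the recovered reads. Gene positions and overlaps came from GENCODE M21 (51625 of 51810 genes matched), promoters from RefSeq. Python 3.11.15, pandas 2.3.3, numpy 2.4.6 and scipy 1.17.1 were used.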

Additional observations from a re-analysis of the deposited data

Results flagged for a closer look

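In groups of 8, a library was singled out by its gap to the nearest of the others, as a share of the group's range. This share passed Dixon's limit for 95% confidence in 17 of 59 groups. Chance alone gives about 1 in 20 for independent groups chosen beforehand. These groups share libraries, and the neuronal and lung lists were added after the libraries were seen, so 17 of 59 cannot be set against that rate. The kidney library of mouse c2295 was lowest for Slc34a1 (731 CPM), Slc12a3 (202) and Nphs1 (4.17) and highest for the share of reads on chromosome X (3.59%) and for the neuronal (6265) and adrenal (239) sums. The kidney library of c1457 was highest for the hepatocyte (1064) and epididymis (12.8) sums. The testis library of c1364 was highest for Sycp1 (1783), Piwil1 (3177), Malat1 (3462), the share of the 100 highest genes (22.0%) and the share on chromosome Y (0.0659%), and lowest for Pgk2 (266). The testis library of c1358 was highest for Gpx3 (53.3) and for the hepatocyte (79.0) and lung (78.0) sums. Each of these values lay on its organ's side of the comparison for Slc34a1, Slc12a3, Nphs1, Sycp1, Piwil1, Pgk2, Gpx3 and Malat1.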

How the results depend on the processing

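Counts of members on the testis lists (162) and kidney lists (125) called at least 4-fold, and the pair counts (18 germ cell forms, 15 somatic forms), stayed within 1.5 times of these under every alternative run. Of the counts over all genes, no filter gave 10578 genes higher in testis, of 31144 tested, and a pseudocount of 5 gave 2322 and 2052 genes at least 4-fold higher in testis and kidney. The split of 4-fold genes was 4027 and 2527 with TMM, 4220 and 2312 with median-of-ratios, 4151 and 3006 with edgeR and 4447 and 2650 with DESeq2. Leaving out 1 mouse gave 5805 to 6039 and 6584 to 6747 calls, with no fewer than 3573 and 3102 at least 4-fold. Without the pairing of organs by mouse as a block there were 6029 and 6807 calls, with 3610 and 3155 at least 4-fold, and leaving the block out changed the call of no other result given here.

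The contrast of 8 months with other ages called 0 genes with a pseudocount of 0.1, 10 with no filter, 1 with TMM, 2 without c2295 and c3662, and 0 to 21 without 1 mouse. The share of the 100 highest genes differed by -2.73 points without the mice whose column names end in b (adjusted p = 0.094 by exact permutation) and by -3.31 to -2.29 without 1 mouse. Without 4 mice (4 pairs, smallest p 0.125), differences were 2806 genes detected, -4.02 and -3.49 points for the 10 and 100 highest genes, -1.36 for chromosome X and -0.0185 for chromosome Y. Values that changed sign were Ldha (-0.0267 without 4 mice), Eno1 (0.19 with TMM, 0.33 with median-of-ratios, 0.10 with edgeR, 0.32 with DESeq2) and the median of the cell cycle inhibitors (0.093 with median-of-ratios and 0.092 with DESeq2). The cause of these changes was not tested.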

Other observations

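At least 5 CPM were found in 5 or more testis libraries and in no kidney library for 2601 genes, and the reverse held for 1902. Processed pseudogenes that passed the filter on low values were more often at least 4-fold higher in testis than in kidney. The counts were 67 and 25 of 169 tested processed pseudogenes, and 34 and 2 of 47 transcribed processed pseudogenes. No kidney library held at least 5 CPM for 66 of the 169 and 33 of the 47. No testis library did for 30 and 2. Another 3410 and 100 had reads but did not pass, so these counts describe the genes that passed and not all pseudogenes. Reads of a pseudogene and its parent gene were not separated further.

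List medians at the 6 ages were computed on the genes tested at 8 months and are given without a test. The immune cell median went from -1.82 at 3 months and -2.30 at 8 months to -4.54 at 20 months and -2.93 at 26 months, while the endothelial median stayed between -3.15 and -2.89. The median of sperm chromatin genes lay between 10.15 and 10.41 at every age, that of meiotic genes between 3.65 and 4.12 and that of proximal tubule transport genes between -7.65 and -6.80. Leydig cell genes lay between 3.36, at 20 months, and 4.09, at 14 months.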
